A study of Mus musculus with 12 samples.

Results

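The genes for mitochondrial ribosomal proteins were measured in the lungs of mice breathing hyperoxia or room air. The members were all genes whose platform symbol starts with Mrpl or Mrps followed by a digit, and they numbered 77 of the 19938 genes with 1 symbol on the array. The Mrpl symbols, which stand for the large subunit, gave 48 genes, and the Mrps symbols, which stand for the small subunit, gave 29. Lung RNA came from C57BL/6J wild-type mice aged 8 to 10 weeks, either held in hyperoxia (FiO2 above 95%) for 48 h or left in room air. The 4 groups were hyperoxia-female, room air-female, hyperoxia-male and room air-male, with 3 Affymetrix Mouse Gene 1.0 ST arrays each, and every array carried a randomized pool of RNA from 4 mice. The arrays give a log2 value for each transcript cluster, which is the set of probes along a gene, so a difference of 1 on this scale is a doubling. The spread between arrays is therefore a spread between pools of mice, not between single mice.

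Mitochondria carry their own ribosomes, which translate the few messages of the mitochondrial genome, all of them core subunits of the respiratory chain and ATP synthase. The ribosomal RNAs come from the mitochondrial genome, whereas every ribosomal protein is encoded in the nucleus, made in the cytosol and imported. The small subunit decodes the message and the large subunit joins the amino acids and sits close to the inner membrane. Some of the proteins have a counterpart in bacterial ribosomes, and others exist only in mitochondria.

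Each group mean was fitted with limma across all 35556 transcript clusters, and a gene passed at a Benjamini-Hochberg adjusted p under 0.05. A gene was called, by the thresholds of the study, if it also changed by at least 1.4-fold, that is by 0.485 on the log2 scale. Medians of the arrays ran from 8.12 to 8.20 and correlations between arrays from 0.969 to 0.995. Marker genes of squamous epithelium, a tissue foreign to the lung, stood apart in some pools. Their mean log2 value (23 of 24 genes measured) ran from 7.27 to 10.06 across the arrays and was highest in hyperoxia-female pool 1 and room air-female pools 1 and 3. Mean values of the lists for alveolar type 2 cells, alveolar type 1 cells and endothelial cells lay between 11.13 and 12.95 on every array.

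Mitochondrial ribosomal protein genes were mostly higher in hyperoxia, by small amounts. In females 24 of the 77 genes passed as higher and 3 as lower, against 9.08% higher and 8.62% lower of all transcript clusters. In males 32 passed as higher and 2 as lower, against 10.0% and 9.3% of all clusters. Averaged over both sexes, with 6 arrays against 6, 43 genes were higher and 3 were lower, where 13.8% of all clusters were higher and 14.1% were lower (17.6% each way of the genes with 1 symbol). The median log2 fold change of the members over both sexes was 0.16, with quartiles of 0.07 and 0.32, against a median of -0.01 over all clusters. Over both sexes the log2 fold change was above 0 for 65 of the 77 genes (84.4%), against 47.8% of the genes with 1 symbol. The counts within a sex moved with single pools. Without hyperoxia-female pool 3 or room air-female pool 2, 13 and 15 genes were higher in females, and without room air-female pool 3, 1 gene was lower. In males 19, 20 and 20 genes were higher without hyperoxia-male pool 1, hyperoxia-male pool 2 or room air-male pool 3. The count of 2 lower in males was 0 or 1 without 9 of the 12 arrays, and was 2 without hyperoxia-female pool 2, room air-female pool 3 or hyperoxia-male pool 1. Leaving out the 3 pools richest in squamous markers left 1 room air-female array, which the fit takes to vary like the other groups, so that fewer passes also follow from fewer arrays. In that fit 6 genes were higher and 0 were lower in females (limma), and 28 were higher and 1 lower over both sexes.

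Most of the changes that passed were under 1.4-fold. Over both sexes 40 of the 46 genes that passed stayed below this threshold, and 6 were called, all higher (3.86% of all clusters were called higher and 3.26% lower). In females 7 genes were called, all higher (3.59% of all clusters higher and 2.93% lower), and in males 7, again all higher (3.94% higher and 3.39% lower), or 13 without room air-male pool 2. In each of the sexes 22 genes passed as higher and 2 as lower (8.04% and 7.1% of all clusters). The genes called in each sex were 5, namely Mrps18b, Mrps6, Mrps27, Mrpl54 and Mrpl12, all higher, where 3.15% of all clusters were called higher and 2.33% lower in each sex. Hyperoxia and room air arrays did not overlap in either sex for 37 genes that were higher (11.6% of all clusters) and for 3 that were lower (11.5%). The remaining 31 genes did not pass over both sexes, and their log2 fold changes lay between -0.15 and 0.30.

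**Figure D1:**
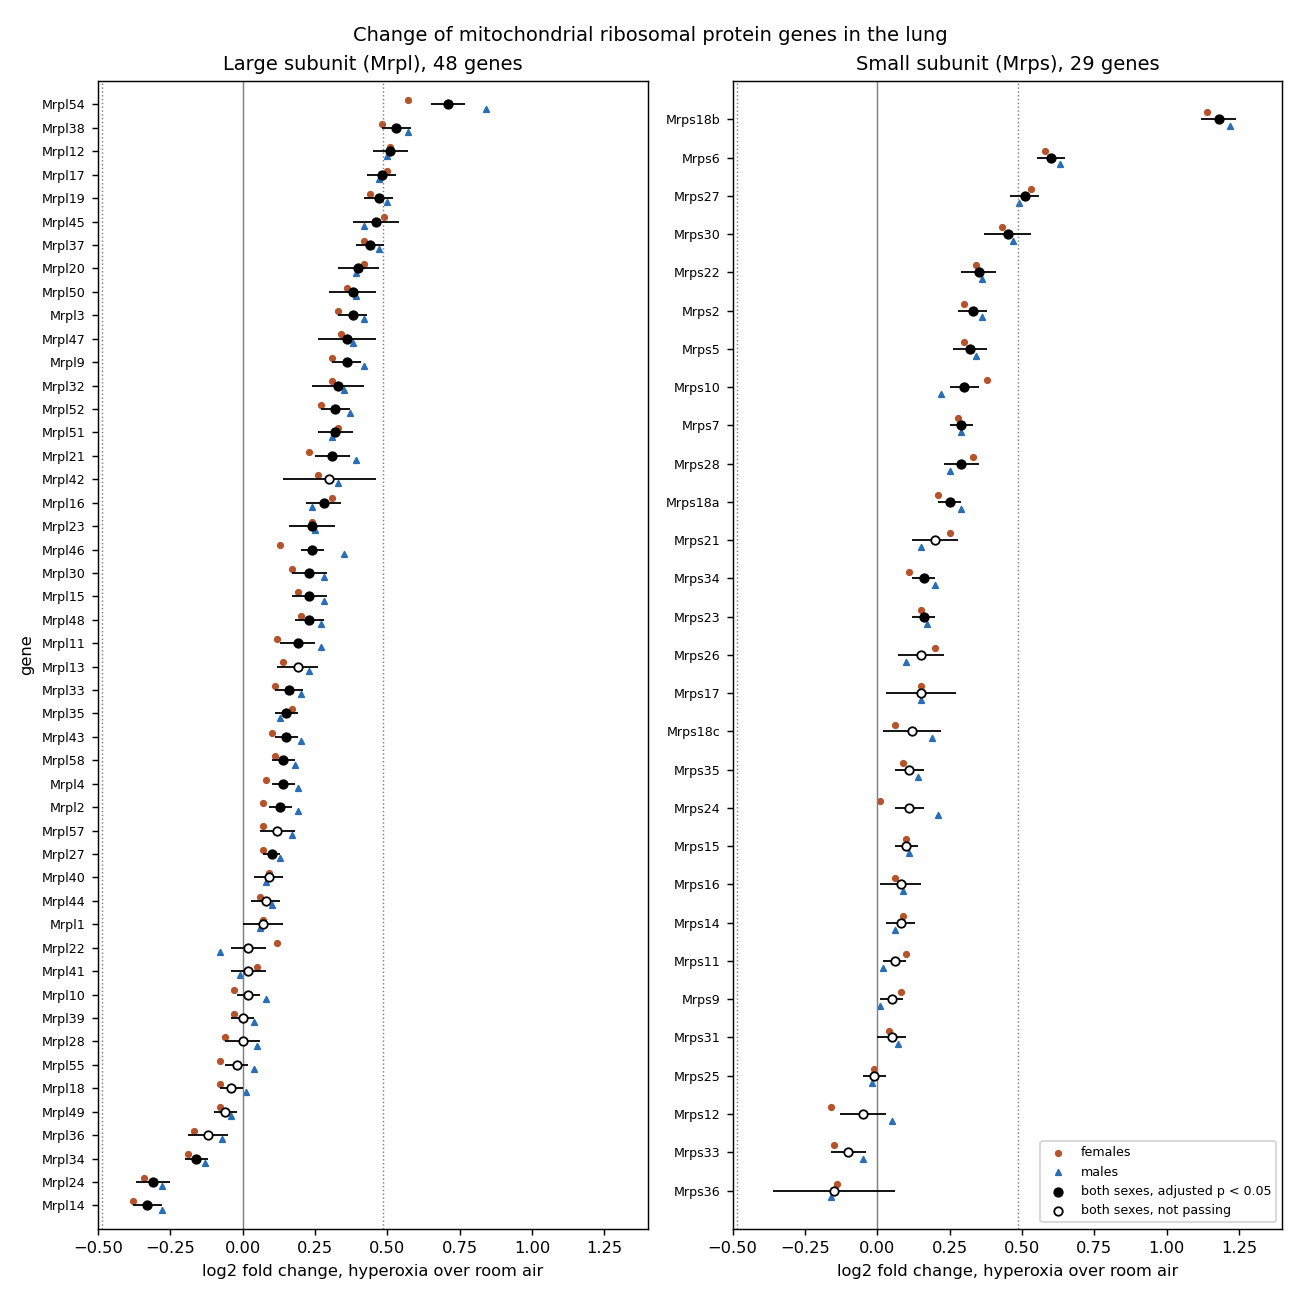
Log2 fold change (x axis) of hyperoxia over room air for each of the 77 genes (y axis), large subunit on the left and small subunit on the right; coloured points are the sexes, and black points with bars are the mean over both sexes with its standard error, filled where the adjusted p was under 0.05. Most points lie between 0 and the dotted line at 0.485 (1.4-fold), Mrps18b stands alone at 1.18, and Mrpl14, Mrpl24 and Mrpl34 are the filled points below 0.

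Within the small subunit, Mrps18b showed the largest change of all 77 genes. Mammals carry 3 genes for relatives of the bacterial S18 protein, Mrps18a, Mrps18b and Mrps18c, and Mrps18b encodes a version found in the small subunit. Mrps18b was at 10.71, 10.77 and 10.84 in the hyperoxia-female pools, against 9.62, 9.53 and 9.77 in the room air-female pools. In males it was at 10.73, 10.88 and 10.78 in hyperoxia, against 9.45, 9.67 and 9.61 in room air. All 6 hyperoxia arrays lay above all 6 room air arrays. Mrps18b changed by 1.14 in females (SE 0.08, adjusted p = 1.09e-05 from limma) and 1.22 in males (SE 0.08, adjusted p = 6e-06), or 2.27-fold over both sexes.

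The other relatives of S18 moved less. Mrps18a, whose protein has been placed in the large subunit in mammalian structures, changed by 0.21 in females (SE 0.06, adjusted p = 0.0442) and by 0.29 in males (SE 0.06, adjusted p = 0.00806). In females Mrps18a no longer passed whichever female array was left out. Mrps18c, which takes the place of the bacterial protein, stood at 9.42, 9.11 and 9.42 in hyperoxia-female pools, against 9.28, 9.08 and 9.41 in room air-female pools. In males Mrps18c was at 9.44, 9.30 and 9.27 in hyperoxia, against 8.93, 9.46 and 9.06 in room air. Its arrays overlapped in both sexes, and the change over both sexes was 0.12 (SE 0.10, adjusted p = 0.483).

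Mrps6 and Mrps27 came next in the small subunit. Mrps6, the counterpart of a bacterial small-subunit protein, was at 10.04, 10.07 and 10.09 in hyperoxia-female pools, against 9.45, 9.52 and 9.51 in room air-female pools. In males Mrps6 was at 10.11, 10.05 and 10.02 in hyperoxia, against 9.56, 9.48 and 9.24 in room air. The arrays did not overlap, and the gene rose 1.49-fold in females (adjusted p = 0.000452, limma) and 1.55-fold in males (adjusted p = 0.000224). Mrps27, an RNA-binding protein with pentatricopeptide repeats, was at 8.18, 8.21 and 8.32 in hyperoxia-female pools, against 7.61, 7.75 and 7.76 in room air-female pools. Mrps27 was at 8.22, 8.17 and 8.28 in hyperoxia-male pools, against 7.64, 7.84 and 7.73 in room air-male pools. It rose 1.45-fold in females and by 1.40-fold in males, again with no overlap between arrays. Without the 3 pools richest in squamous markers the female change of Mrps6 was 0.57 and no longer passed.

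The RefSeq gene of Mrps6 overlaps Slc5a3, which encodes a sodium-coupled myo-inositol transporter and was looked up after the values of Mrps6 had been seen. Slc5a3 was at 9.14, 9.20 and 9.44 in hyperoxia-female pools, against 8.46, 8.60 and 8.81 in room air-female pools. It changed by 0.64 in females (adjusted p = 0.00237) and by 0.65 in males (adjusted p = 0.00192), beside 0.58 in females and 0.63 in males for Mrps6. An overlapping coding gene was found for 19 members, and the pairs below were named after their values were seen. Over both sexes the falling Mrpl24 (-0.31) overlaps Rrnad1 (-0.26, adjusted p = 0.000191, limma). The falling Mrpl14 (-0.33) overlaps Tmem63b (-0.21, adjusted p = 0.00888). The overlapping gene moved the other way for the rising Mrpl2 (Klc4, -0.31), Mrpl37 (Cyb5rl, -0.16) and Mrps18a (Rsph9, -0.21). It moved the same way for the rising Mrps7 (Mif4gd, 0.15) and Mrpl48 (Rab6a, 0.13). For the rising Mrpl19, Mrpl21, Mrpl27, Mrpl43, Mrps2 and Mrps23 it did not pass, nor did Gga3, which also overlaps Mrps7. Beside members that did not pass, Tcp1 (0.43, Mrpl18) and Wdfy1 (0.39, Mrpl44) rose, and Nr2c2 (-0.23, Mrps25) and Syvn1 (-0.17, Mrpl49) fell. Whether the clusters of any overlapping pair read a shared transcript was not tested.

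Among other small-subunit genes, Mrps30, Mrps22 and Mrps2 rose in both sexes. Mrps30, whose protein has also been placed in the large subunit, changed by 0.43 in females (adjusted p = 0.0223) and by 0.47 in males (adjusted p = 0.0122). Mrps22, known only from mitochondria, changed by 0.34 in females (adjusted p = 0.0153) and by 0.36 in males (adjusted p = 0.0109). Mrps2, a counterpart of a bacterial protein, changed by 0.30 in females (adjusted p = 0.0164) and by 0.36 in males (adjusted p = 0.00562). In females none of the 3 passed without hyperoxia-female pool 3, where the changes were 0.42 for Mrps30 and 0.27 for Mrps22 and Mrps2. Nor did Mrps30 without hyperoxia-female pool 1 (0.37) or room air-female pool 1 (0.37) or 2 (0.40), Mrps2 without hyperoxia-female pool 2 (0.27) or room air-female pool 1 (0.30) or 3 (0.26), or Mrps22 without room air-female pool 2 (0.32). In males Mrps30 did not pass without hyperoxia-male pool 1 (0.42) or room air-male pool 3 (0.44). Besides Mrps18a, smaller changes passed over both sexes for Mrps5 (0.32), Mrps10 (0.30), Mrps7 (0.29), Mrps28 (0.29), Mrps34 (0.16) and Mrps23 (0.16). Mrps25 and Mrps9 changed least in the small subunit. Mrps25 was at 8.70, 8.72 and 8.76 in hyperoxia-female pools, against 8.73, 8.75 and 8.73 in room air-female pools, a change of -0.01 over both sexes (SE 0.04). Mrps9 changed by 0.05 (SE 0.04, adjusted p = 0.468). None of the 29 small-subunit genes passed as lower over both sexes (limma), where 13 passed as higher and 16 had an unadjusted p under 0.05.

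Mrps36 belongs to the list by its symbol alone, since its protein has been described as a part of the 2-oxoglutarate dehydrogenase complex rather than of the ribosome. It had the widest spread of the 77 genes. It was at 8.05, 7.05 and 7.83 in hyperoxia-female pools, against 7.67, 7.52 and 8.17 in room air-female pools, and its change of -0.15 over both sexes had an SE of 0.21.

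In the large subunit, Mrpl54 rose most. This protein has no bacterial counterpart. Mrpl54 was at 10.13, 10.03 and 10.21 in hyperoxia-female pools, against 9.56, 9.41 and 9.68 in room air-female pools. In males it was at 10.19, 10.06 and 10.15 in hyperoxia, against 9.15, 9.40 and 9.32 in room air. All hyperoxia arrays lay above every room air array. The change was 1.48-fold in females (adjusted p = 0.00135, limma) and 1.80-fold in males (adjusted p = 9.88e-05).

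Mrpl12 encodes the protein of the flexible stalk where translation factors bind, and in human cells it also binds the mitochondrial RNA polymerase. Mrpl12 was at 9.75, 10.00 and 9.76 in hyperoxia-female pools, against 9.28, 9.37 and 9.33 in room air-female pools. It was at 9.97, 9.89 and 9.91 in hyperoxia-male pools, against 9.56, 9.34 and 9.37 in room air-male pools. The gene rose 1.42-fold in each sex (adjusted p = 0.00139 in the females, 0.00133 in the males), and in females it did not pass without the 3 squamous-rich pools at an equal change of 0.51. Polrmt, the mitochondrial RNA polymerase, changed by 0.04 in females (adjusted p = 0.877) and by 0.09 in males (adjusted p = 0.522).

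Further rises in the large subunit were those of Mrpl38, Mrpl17, Mrpl19 and Mrpl45. Mrpl38, found only in mitochondria, was at 9.74, 9.79 and 9.92 in hyperoxia-female pools, against 9.26, 9.31 and 9.42 in room air-female pools, and at 9.87, 9.84 and 9.84 in hyperoxia-male pools, against 9.25, 9.35 and 9.24 in room air-male pools. It rose 1.44-fold over both sexes (adjusted p = 1.16e-05). Mrpl17 and Mrpl19, counterparts of bacterial proteins, rose 1.40-fold and 1.39-fold over both sexes (adjusted p = 3.88e-05 and 4.92e-05). Mrpl17 was at 9.63, 9.71 and 9.81 in hyperoxia-female pools, against 9.10, 9.25 and 9.30 in room air-female pools, and at 9.72, 9.84 and 9.71 in hyperoxia-male pools, against 9.28, 9.32 and 9.25 in room air-male pools. No hyperoxia array of Mrpl17 fell within the room air range. Mrpl45 anchors the human ribosome to the inner membrane. It was at 9.45, 9.31 and 9.50 in hyperoxia-female pools, against 8.93, 8.82 and 9.04 in room air-female pools. In males Mrpl45 was at 9.25, 9.31 and 9.23 in hyperoxia, against 8.83, 9.07 and 8.63 in room air, with room air-male pool 3 the lowest. The log2 fold change of Mrpl45 was 0.49 in females (adjusted p = 0.00874) and 0.42 in males (adjusted p = 0.0188), and in males it did not pass without hyperoxia-male pool 1 (0.43), hyperoxia-male pool 2 (0.40) or room air-male pool 3 (0.31). Mrpl41, a protein that has been linked to apoptosis in human cells, changed by 0.02 (SE 0.06, adjusted p = 0.885).

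All 3 genes that were lower lay in the large subunit, and all have bacterial counterparts. Mrpl14, a protein at the face that meets the small subunit, was at 9.05, 9.20 and 9.07 in hyperoxia-female pools, against 9.41, 9.59 and 9.47 in room air-female pools. In males Mrpl14 was at 9.37, 9.15 and 9.24 in hyperoxia, against 9.53, 9.51 and 9.55 in room air. The arrays did not overlap in either sex. The log2 fold change was -0.38 in females (SE 0.07, adjusted p = 0.00412) and -0.28 in males (SE 0.07, adjusted p = 0.0222), and in males it did not pass without hyperoxia-male pool 2 or 3 or room air-male pool 1 or 3.

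Mrpl24 was at 9.77, 9.71 and 9.76 in hyperoxia-female pools, against 10.07, 10.02 and 10.16 in room air-female pools, and at 9.87, 9.76 and 9.60 in hyperoxia-male pools, against 9.94, 10.15 and 9.96 in room air-male pools. It changed by -0.34 in females (adjusted p = 0.0164, limma) and by -0.28 in males (adjusted p = 0.0396). Mrpl34 was at 10.00, 9.88 and 10.02 in hyperoxia-female pools, against 10.22, 10.12 and 10.13 in room air-female pools, and at 10.04, 9.91 and 10.03 in hyperoxia-male pools, against 10.13, 10.14 and 10.11 in room air-male pools. Mrpl34 changed by -0.19 in females (adjusted p = 0.0492) and by -0.13 in males (adjusted p = 0.176). The groups did not overlap for Mrpl24 and Mrpl34 in either sex, although in females Mrpl34 did not pass whichever array was left out, nor Mrpl24 without room air-female pool 3 (-0.30), and in males Mrpl24 did not pass without 8 of the 12 arrays. Over both sexes Mrpl24 (-0.31, adjusted p = 0.00232) and Mrpl34 (-0.16, adjusted p = 0.014) passed with each array left out in turn, and neither passed without the 3 squamous-rich pools (-0.28 and -0.15). Mrpl28 and Mrpl39 changed least in the large subunit, each by 0.00 over both sexes (SE 0.06 and 0.04).

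**Figure D2:**
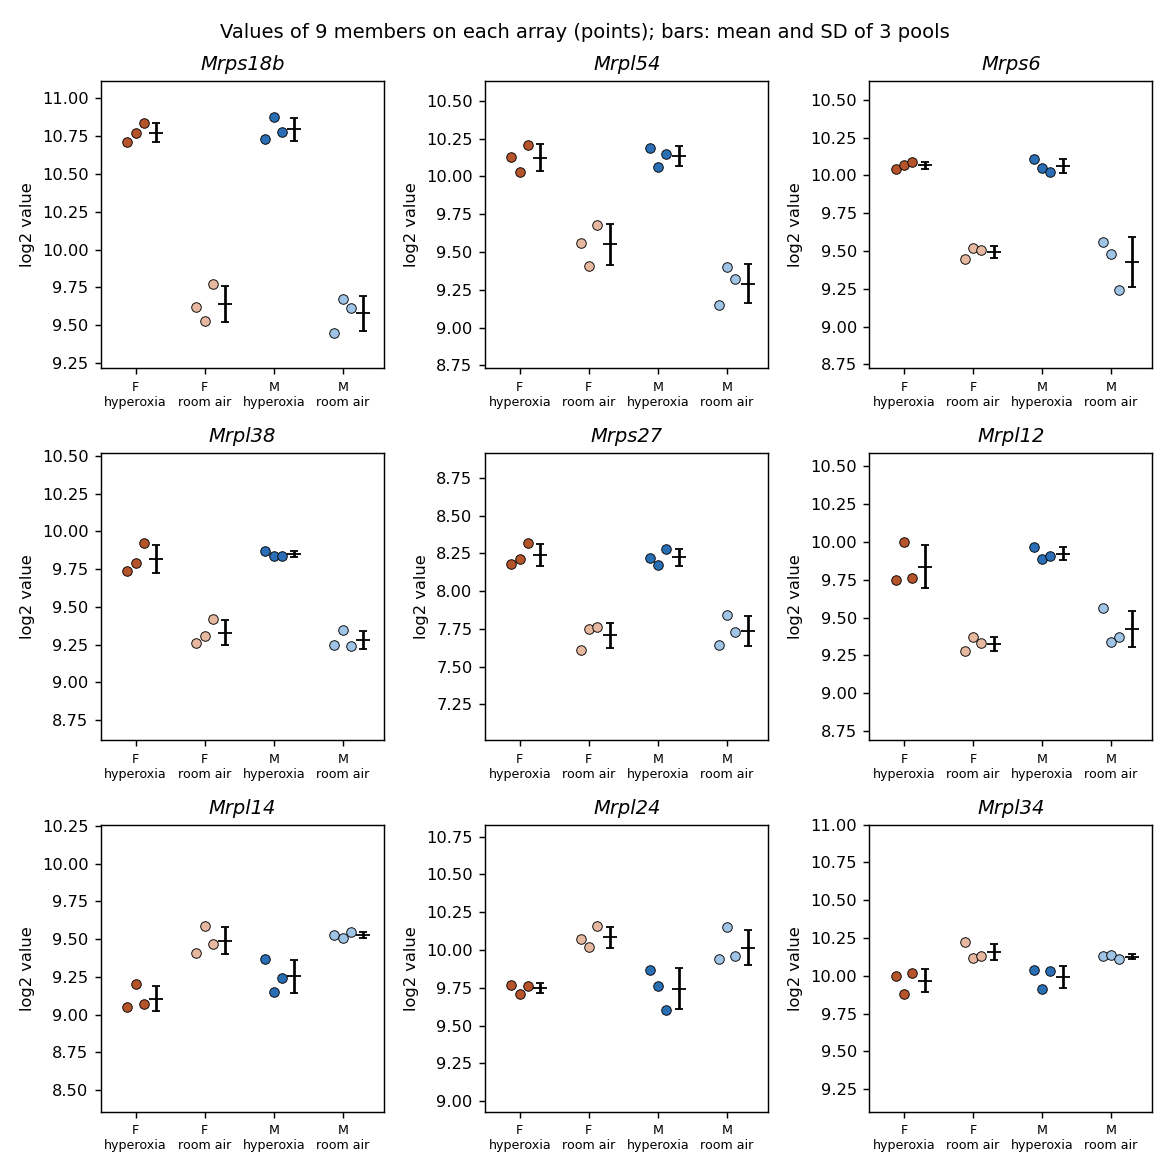
Log2 values (y axis) of 9 genes on each of the 12 arrays, by group (x axis; F, females; M, males); bars give the mean and SD of 3 pools, and each panel spans the same range on its own axis. In the first 6 panels hyperoxia pools sit above room air pools, with the widest gap for Mrps18b, and for Mrpl14, Mrpl24 and Mrpl34 they sit below.

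The subunits were compared by their counts, medians and means on each array. Over both sexes 30 of 48 large-subunit genes were higher and 3 were lower, against 13 higher and 0 lower of 29 small-subunit genes. Of all clusters 13.8% were higher and 14.1% were lower. The median log2 fold change of the large subunit was 0.14 in females and 0.24 in males, and that of the small subunit was 0.15 in females and 0.17 in males. The mean log2 value of the large-subunit genes ran from 9.42 to 9.50 in hyperoxia-female pools, against 9.27 to 9.34 in room air-female pools, and from 9.44 to 9.49 in hyperoxia-male pools, against 9.20 to 9.32 in room air-male pools. For the small subunit the means ran from 9.16 to 9.24 in hyperoxia-female pools, against 8.97 to 9.04 in room air-female pools, and from 9.17 to 9.23 in hyperoxia-male pools, against 8.93 to 9.04 in room air-male pools. Both subunits were thus higher on each hyperoxia array than on any room air array of the same sex. The large minus the small mean was 0.25 to 0.26 in hyperoxia-female pools, against 0.28 to 0.30 in room air-female pools, and 0.26 to 0.29 in hyperoxia-male pools, against 0.27 to 0.28 in room air-male pools. This difference did not overlap in females and overlapped in males. Arrays did not overlap in either sex for 23 large-subunit and 14 small-subunit genes that were higher (11.6% of all clusters), and for 3 large-subunit and 0 small-subunit genes that were lower (11.5%).

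**Figure D3:**
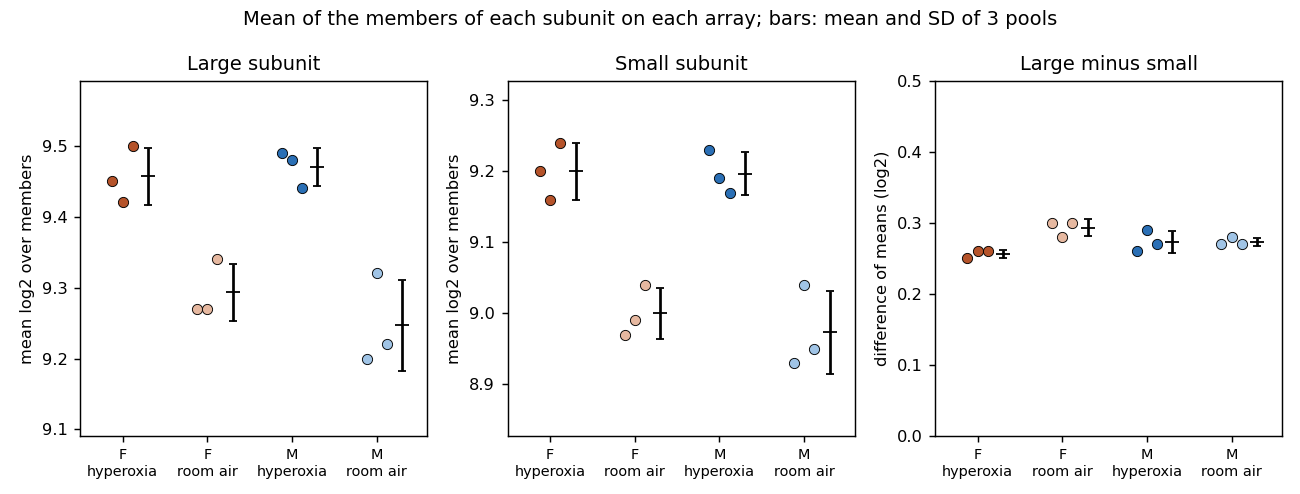
Mean log2 value over the 48 large-subunit genes, over the 29 small-subunit genes and their difference (y axes) on each of the 12 arrays, by group (x axis; F, females; M, males); bars give the mean and SD of 3 pools. Both means are higher on every hyperoxia array than on the room air arrays of that sex, while the difference stays between 0.25 and 0.30.

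Placing the proteins by structure instead of by symbol moved Mrps18a and Mrps30 to the large subunit and left Mrps36 out. With that placement, 32 of 50 large-subunit genes were higher and 3 lower over both sexes, and 11 of 26 small-subunit genes were higher and 0 lower, with medians of 0.21 and 0.15. By origin, 24 of 44 genes with a bacterial counterpart were higher and 3 were lower (median 0.15), and 19 of 32 genes classed as specific to mitochondria were higher and 0 lower (median 0.20). The last class held Mrps18a and Mrps18b, although both are relatives of the bacterial S18 protein. Over all clusters the median was -0.01, with 13.8% higher and 14.1% lower. The classes by structure and origin were set up after values had been seen, and the difference between them was not tested.

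The test found no member whose change differed between the sexes. The interaction, that is the change in males minus that in females, passed for 0 of 77 genes and 0 of 35556 clusters (0.0% of all clusters, limma), and it had an unadjusted p under 0.05 for 1 member and 516 clusters. That member was Mrpl46, found only in mitochondria, which was at 8.81, 8.83 and 8.88 in hyperoxia-male pools, against 8.53, 8.42 and 8.51 in room air-male pools. In females Mrpl46 was at 8.66, 8.72 and 8.81 in hyperoxia, against 8.56, 8.61 and 8.63 in room air. The arrays did not overlap in either sex, and the interaction was 0.22 (SE 0.08, unadjusted p = 0.0189 from limma, adjusted p = 1). The largest interaction of a member was that of Mrpl54, at 0.28 (SE 0.13, unadjusted p = 0.0527 from limma), and those of Mrps24 and Mrpl2 were 0.20 and 0.12 (unadjusted p = 0.0771 and 0.12, limma). The male log2 fold change was above the female one for 55 of the 77 genes (71.4%), against 11529 of the 19938 genes with 1 symbol (57.8%). Between males and females, 0 members passed in hyperoxia (0.0169% of all clusters) and 0 in room air (0.0141%), with 0 and 1 members at an unadjusted p under 0.05 in limma.

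Of the 77 genes, 8 had a second transcript cluster. Both clusters of Mrps5 passed over both sexes, at 0.32 and 0.28, as did those of Mrpl51 (0.32 and 0.24) and Mrpl23 (0.24 and 0.24). The clusters of Mrpl47 differed, at 0.36 (adjusted p = 0.0226) for the one used and 0.07 (adjusted p = 0.729) for the other. For Mrpl27 the cluster used passed at 0.10 (adjusted p = 0.0426) and the other did not at 0.16 (adjusted p = 0.11), and neither cluster passed for Mrpl41, Mrps33 and Mrps36. No gene had clusters that passed in opposite directions.

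Upstream sequences are shown for the member with the largest change, for 3 of the other rising members and for the falling member with the largest change, to place them beside the letters searched for. The RefSeq promoter table (GRCm38.p6) held 68 of the 77 genes. The runs are the 250 bases before each RefSeq start, 5′ to 3′ on the strand of the gene, and capitals mark a match to the NRF1 core GCGCANGCG or to the ETS core CCGGAAG on either strand. They lie at chr17:35916441-35916690 on the minus strand (Mrps18b), chr11:120484387-120484636 on the plus strand (Mrpl12), chr11:97315466-97315715 on the plus strand (Mrpl45), chr13:99344536-99344785 on the plus strand (Mrps27) and chr17:45686099-45686348 on the plus strand (Mrpl14).
Mrps18b: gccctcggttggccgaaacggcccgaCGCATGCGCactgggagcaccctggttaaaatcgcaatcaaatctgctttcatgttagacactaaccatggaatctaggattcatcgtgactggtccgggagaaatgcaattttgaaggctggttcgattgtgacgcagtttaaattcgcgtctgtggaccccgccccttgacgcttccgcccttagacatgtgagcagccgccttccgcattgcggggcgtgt
Mrpl12: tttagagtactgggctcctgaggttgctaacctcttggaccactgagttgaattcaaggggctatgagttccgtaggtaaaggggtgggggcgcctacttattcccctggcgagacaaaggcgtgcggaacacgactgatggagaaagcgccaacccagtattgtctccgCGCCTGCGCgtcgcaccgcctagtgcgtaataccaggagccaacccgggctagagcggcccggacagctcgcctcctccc
Mrpl45: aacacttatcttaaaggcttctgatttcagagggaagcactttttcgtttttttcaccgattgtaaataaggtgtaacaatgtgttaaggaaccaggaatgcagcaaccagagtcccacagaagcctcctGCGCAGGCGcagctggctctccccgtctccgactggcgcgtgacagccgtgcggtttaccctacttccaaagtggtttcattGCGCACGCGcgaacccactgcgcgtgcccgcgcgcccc
Mrps27: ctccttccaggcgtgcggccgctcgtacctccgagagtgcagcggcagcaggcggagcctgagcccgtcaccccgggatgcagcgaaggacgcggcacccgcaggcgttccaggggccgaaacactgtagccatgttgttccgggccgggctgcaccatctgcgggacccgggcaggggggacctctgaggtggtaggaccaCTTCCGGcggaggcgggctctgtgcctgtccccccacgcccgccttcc
Mrpl14: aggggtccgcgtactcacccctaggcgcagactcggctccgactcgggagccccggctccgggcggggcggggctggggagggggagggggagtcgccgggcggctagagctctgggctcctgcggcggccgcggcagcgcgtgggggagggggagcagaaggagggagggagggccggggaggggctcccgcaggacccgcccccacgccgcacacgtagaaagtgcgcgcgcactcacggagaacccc
Mrpl45 holds the NRF1 letters at 2 places and Mrps18b and Mrpl12 at 1 place each, Mrps27 holds the ETS core at 1 place, and the run of Mrpl14 holds neither. These runs are examples and do not stand for all rising or falling members. Among rising members not shown, the 250 bases of Mrps6 (0.60 over both sexes) and Mrps30 (0.45) hold neither, and those of Mrpl17 (0.48) hold both. The 250 bases of the falling Mrpl34 (-0.16) hold the ETS core.

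NRF1 is a factor known for genes of mitochondrial biogenesis, and ETS-family factors and YY1 are known at many genes of ribosomes and mitochondria. In the window of 300 bases around the start (250 before, 50 after), read on both strands, the NRF1 letters were present in 16 of 68 members (23.5%) and in 6.47% of all 27025 promoters. With a further C required at the 3′ end they were present in 13 members (19.1%) and 4.78% of all promoters, and Mrps18b was then without a match. The ETS core was present in 24 members (35.3%), against 9.12% of all promoters, and the YY1 letters AAGATGGCG in 8 (11.8%), against 1.49%. The E-box CACGTG, read by MYC among others, was present in 5 members (7.35%), against 7.24%. The antioxidant response element TGACNNNGC, which the oxidant sensor NRF2 binds, was present in 14 (20.6%), against 12.5%, and TGATGNAA, letters of the element that ATF4 binds, in 0 of 68, against 4.06%. Matches of different motifs that overlap were each counted. Only 17491 of the 27025 promoters belong to protein-coding genes, and shares within those alone were not counted. Members that rose over both sexes held the NRF1 letters in 7 of 36 promoters and the ETS core in 14 of 36, and members that did not pass held them in 8 of 29 and 9 of 29. Of the 3 members that fell, 1 held the NRF1 letters and 1 the ETS core. A match is a description of the letters, and binding was not measured.

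Many members start close to a gene on the opposite strand. Such a partner lay within 1000 bases of the start for 23 of 68 members (33.8%), against 1315 of 17491 protein-coding genes (7.52%). Of the 22 partners measured, 3 passed as higher over both sexes (Tcp1, Ppp1r10 and Mrpl46, itself a member) and 5 as lower. Of all clusters 13.8% were higher and 14.1% lower, and of the genes with 1 symbol 17.6% each way. The partners named here were chosen after their values were seen. Mrps18b starts 756 bases from Ppp1r10, a regulatory subunit of protein phosphatase 1. Ppp1r10 was at 10.10, 10.13 and 10.19 in hyperoxia-female pools, against 9.89, 9.98 and 9.96 in room air-female pools, and its change over both sexes was 0.19 (adjusted p = 0.00269), against 1.18 for Mrps18b. Mrpl51 rose by 0.32 while Ncapd2, a condensin subunit that starts 614 bases away, fell by 0.41, and Mrpl2 rose by 0.13 while Klc4, a kinesin light chain, fell by 0.31. Mrpl14 fell by 0.33 and its partner Tmem63b fell by 0.21. Mrpl18 changed by -0.04 (adjusted p = 0.624) and its partner Tcp1, a subunit of the cytosolic chaperonin, by 0.43 (adjusted p = 0.000918). The members Mrpl46 and Mrps11 start 42 bases apart and changed by 0.24 (adjusted p = 0.00108) and 0.06 (adjusted p = 0.374).

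**Figure D4:**
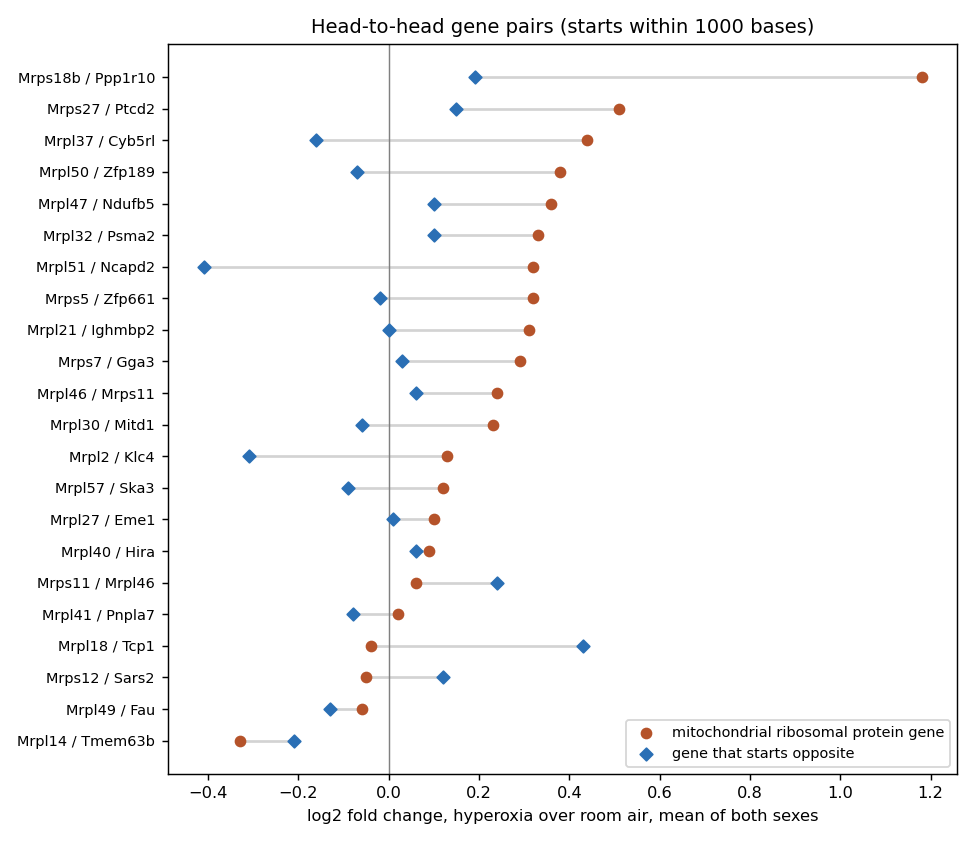
Log2 fold change over both sexes (x axis) of 22 members (circles) and of the gene that starts within 1000 bases on the opposite strand (diamonds), joined by a line for each pair (y axis); the pair of Mrpl46 and Mrps11 appears under each name. Mrps18b at 1.18 and Ppp1r10 at 0.19 lie farthest apart, followed by Mrpl51 at 0.32 and Ncapd2 at -0.41.

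Other genes of mitochondrial translation were counted beside the members. Over both sexes 17.6% of all genes with 1 symbol were higher and 17.6% were lower. Among 4 ribosomal proteins under other symbols, Chchd1, of the small subunit, rose by 0.58 over both sexes (SE 0.09, adjusted p = 0.000505) and Dap3, a GTP-binding protein of the small subunit, by 0.14 (SE 0.05, adjusted p = 0.0439), and Ptcd3 had 0.21 (SE 0.11, adjusted p = 0.196). Of 17 genes listed for mitochondrial translation, which were translation factors and other proteins, 5 were higher and 1 was lower (median -0.01). The 5 higher genes were Lrpprc, Mrrf, Gfm1, Letm1 and Oxa1l. Lrpprc, which stabilizes mitochondrial messages, rose by 0.48, and Mrrf, the ribosome recycling factor, by 0.25, while 2810006K23Rik fell by 0.26. Of 28 genes for assembly of the mitochondrial ribosome and modification of its RNA 12 were higher and 1, Nsun4, was lower (median 0.11). Fastkd2, which binds the large ribosomal RNA, rose by 0.56, Afg3l2, a protease of the inner membrane, by 0.50, and Mrm3, a methylase of the large ribosomal RNA, by 0.38 (adjusted p = 9.13e-05, 6.39e-06 and 0.000596). Nsun4, a methylase of the small ribosomal RNA that was named after its value was seen, changed by -0.32 (adjusted p = 0.00204). Of 19 genes for mitochondrial transcription and RNA processing 7 were higher and 1 was lower (median 0.09), with Trmt10c, a subunit of mitochondrial RNase P, at 0.64 and Supv3l1, an RNA helicase, at 0.35.

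The genes of the cytosolic ribosome were set beside those of the mitochondrial one, where 17.6% of the genes with 1 symbol were higher and 17.6% lower over both sexes. Of 39 genes for biogenesis of the cytosolic ribosome 38 were higher and 0 lower over both sexes, with a median of 0.66, against 0.16 for the mitochondrial ribosomal proteins. The cytosolic ribosomal proteins were 57 genes taken by symbol alone, like-named genes such as Rps27l, Rpl7l1 and Rpl10l among them. Their median was 0.05, with 16 higher and 2 lower, and Rpl12 at 1.18 and Rps27l at 0.87. Of 97 nuclear oxidative phosphorylation genes, several of whose complexes also hold subunits made by the mitochondrial ribosome, 30 were higher and 10 lower (median 0.10), with Ndufaf4, an assembly factor of complex I, at 0.84 and Cox4i2, a subunit of cytochrome c oxidase, at -0.54. These lists share the control arrays, and the differences between them were not tested.

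**Figure D5:**
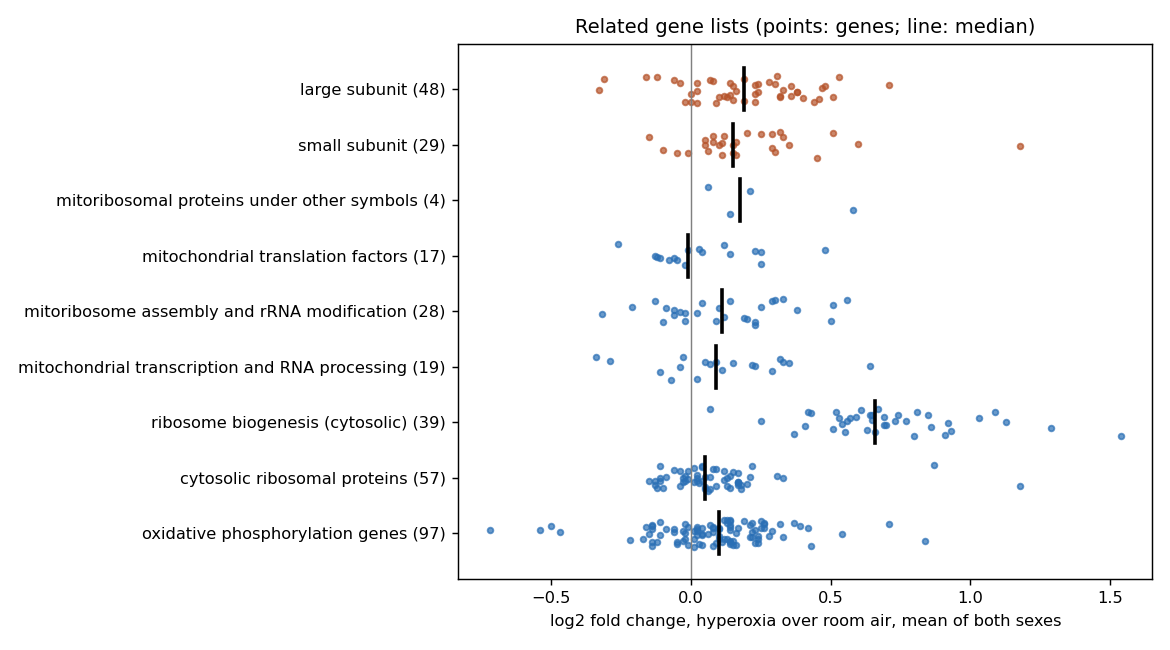
Log2 fold change over both sexes (x axis) of each gene in 9 lists (y axis, number of genes in brackets); points are genes, vertical lines are medians, and the mitochondrial ribosomal subunits are in orange. The medians are 0.19 for the large and 0.15 for the small subunit, 0.66 for biogenesis of the cytosolic ribosome and 0.05 for cytosolic ribosomal proteins.

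Marker lists of several lung cell types moved in the opposite direction. The mean log2 value of 14 endothelial genes ran from 11.13 to 11.23 in hyperoxia-female pools, against 11.74 to 11.86 in room air-female pools, and from 11.21 to 11.25 in hyperoxia-male pools, against 11.80 to 11.95 in room air-male pools, and 11 of the 14 were lower over both sexes. Of the markers of alveolar type 2 cells 8 of 9 were lower, of alveolar type 1 cells 6 of 8 (1 was higher). Of club and ciliated cell markers 6 of 11 were lower, of B cells 7 of 10 and of T and natural killer cells 7 of 13. Of neutrophil markers 6 of 12 were lower, and of cardiac and skeletal muscle 5 of 13. Of the genes with 1 symbol 17.6% were lower and 17.6% higher. Within the sexes, 6 neutrophil and 6 B cell markers passed as lower in males and 0 of either list in females. In muscle 0 markers passed within either sex. The muscle mean ran from 9.24 to 11.20 in hyperoxia-female pools, against 9.99 to 11.32 in room air-female pools. In males it ran from 8.94 to 10.55 in hyperoxia, against 9.52 to 11.53 in room air, so it overlapped in both sexes. Of 11 monocyte and macrophage markers 4 were higher and 5 lower. The proliferation list ran from 8.20 to 8.32 in hyperoxia-female pools, against 8.50 to 8.62 in room air-female pools. In males it ran from 8.18 to 8.29 in hyperoxia, against 8.41 to 8.54 in room air. Over both sexes 8 of its 13 genes were lower and 1 was higher, with 7 lower in females and 2 in males. The part of these lists in the changes of the mitochondrial ribosomal protein genes was not tested. Fewer cells of a type and less RNA per cell cannot be told apart in whole lung.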

How the data were processed

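Lung RNA of the 12 pools was hybridised to Affymetrix Mouse Gene 1.0 ST arrays. The authors deposited log2 values per transcript cluster made by Robust Multichip Average (background correction, quantile normalization and median polish); no version of it is stated in the labels or methods. The 35556 clusters entered as deposited, dim ones included. Quantile normalization sets every array to 1 distribution, so a shift of all genes together would not be seen. Precision is limited by the 3 arrays per group.

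Clusters were named from the platform annotation (1 symbol for 21789 clusters, several for 1621, none listed for 12146), and for each gene the cluster with the highest mean was used. Member symbols gave 85 clusters; 1 further cluster with several symbols, Mrpl53 among them, was not used. Group means were fitted with limma 3.58.1 (R 4.3.3; lmFit and eBayes), with Benjamini-Hochberg adjustment over all clusters within a contrast. Named genes are 32 members: those called, the 6 highest and 6 lowest that passed and the 2 with the smallest change per subunit, the 4 smallest interaction p-values, the Mrps18 paralogs and members with further roles, and up to 3 genes of each other list; members outside this rule were named after their values were seen. The members and lists were chosen with earlier results of these data known. Gene spans, starts and promoters are from RefSeq GRCm38.p6. Summaries used Python 3.11.15 with pandas 2.3.3, numpy 2.4.6 and matplotlib 3.10.9. The procedure was tested on simulated data. Alternatives numbered 13, and 3 were added after seeing the data. No scan dates are stated, so batches were not tested.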

Additional observations from a re-analysis of the deposited data

How the results depend on the processing

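Among the 32 named members, no change that passed turned in sign under the alternatives. The large minus small median in females, -0.01, did turn in sign under several of them. Some changes near 0 that did not pass did so too, such as Mrpl39 in females, -0.03 as reported and 0.04 with array weights. Array weights, which did not converge, gave 48 higher and 5 lower members in females, 0 lower in males, a large-subunit median of 0.21 in females and a large minus small median of 0.05 in females and 0.03 in males. Quantile normalization again gave large minus small medians of 0.01 in females and 0.04 in males. With arrays centred on their median, 1 member was lower in males, the male medians were 0.28 for the large and 0.22 for the small subunit, and 10 members were called higher over both sexes. Each sex fitted alone gave 21 higher and 0 lower in males, and adjustment over all contrasts or the replicate number as a block gave 0 lower in males. Residuals of pools with the same replicate number correlated at -0.71 to 0.70, with 6 of 18 pairs over 0.1. Those of pools from different groups with different numbers correlated at -0.74 to 0.72. Within a group of 3 arrays the residuals are tied to each other, so these values cannot show whether the numbers pair the pools. Under the replicate block 11 of 96 values of named genes no longer passed. Limma's treat against a fold change of 1.1 gave, as higher and lower members, 11 and 1 for females, 13 and 0 for males and 22 and 1 over both sexes. An adjusted p under 0.01 gave 12 and 1 for females and 17 and 0 for males. Taking the squamous mean as a covariate left 1 lower in males. Leaving out each array in turn gave 13 to 28 higher and 1 to 2 lower for females, 19 to 33 higher and 0 to 2 lower for males and 35 to 46 higher over both sexes, 5 to 13 called higher in males, and large minus small medians of -0.01 to 0.02 in females, 0.04 to 0.07 in males and 0.02 to 0.06 over both sexes. Of the alternatives chosen after seeing the data, leaving out the 3 pools highest in squamous epithelium, which leaves 1 room air-female array, gave 6 higher and 0 lower in females (limma), with a large minus small median of -0.02, 1 lower in males, and 28 higher, 1 lower and 10 called higher over both sexes. The first component within groups as a covariate gave 5 lower in females and 5 over both sexes. Subunits by structure gave large minus small medians of 0.03 in females, 0.08 in males and 0.06 over both sexes. The cause of these shifts was not tested. The other alternatives (a trend and robust prior, a mean log2 of at least 5, the mean of the clusters of a gene) left these counts and medians within their margins.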
